A study of Mus musculus with 2 samples.

Results

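The genes described here are 8 transcription factors of the lung epithelium that belong neither to the forkhead nor to the Sox family: Nkx2-1, Gata6, Cebpa, Elf3, Elf5, Grhl1, Grhl2 and Trp63. They were taken by name from the gene and transcript tables, where 8 of 8 were found by identifier among 43346 genes. The tissue was whole lung of healthy B6NCrl mouse embryos at embryonic day 15.5, males and females pooled, with no genotype change and no treatment. It formed a single group of 2 biological replicates: 78 embryos gave the pool of replicate 1, and 62 that of replicate 2. Each library was made from 10 ng of total RNA of more than 200 nt with added spike-in sequences, and 39530297 and 35733530 reads were assigned to genes. Each pool of embryos has a single library, so the spread between the libraries joins the pools, their dissection and their preparation.

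Transcription factors of several families divide the work of building the lung epithelium. NKX2-1 marks the future lung in the foregut and later drives surfactant genes, GATA6 acts with it during branching, and C/EBPα is known for the maturation of the distal epithelium. ELF3 and ELF5 are epithelial ETS factors, GRHL1 and GRHL2 hold epithelial junction genes active, and TRP63 (p63) is the factor of basal cells. At this stage the airway tree is still branching and most alveolar differentiation lies ahead.

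Levels are given as TPM, the transcript level per length scaled to the same total in each library, with the deposited interval of each library in parentheses and the mean ± SD of the libraries (n = 2). Detection required at least 1 TPM in each library. By that rule 8 of 8 factors were detected, beside 60.7% of all protein-coding genes and 33.6% of all genes. Nkx2-1 led, Gata6 and Elf3 followed at about the same level, Grhl2 came next, and Cebpa, Elf5, Grhl1 and Trp63 were low. In whole tissue, fewer cells of a type and less RNA per cell cannot be told apart, and the levels average over all cells of the lung.

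**Figure D1:**
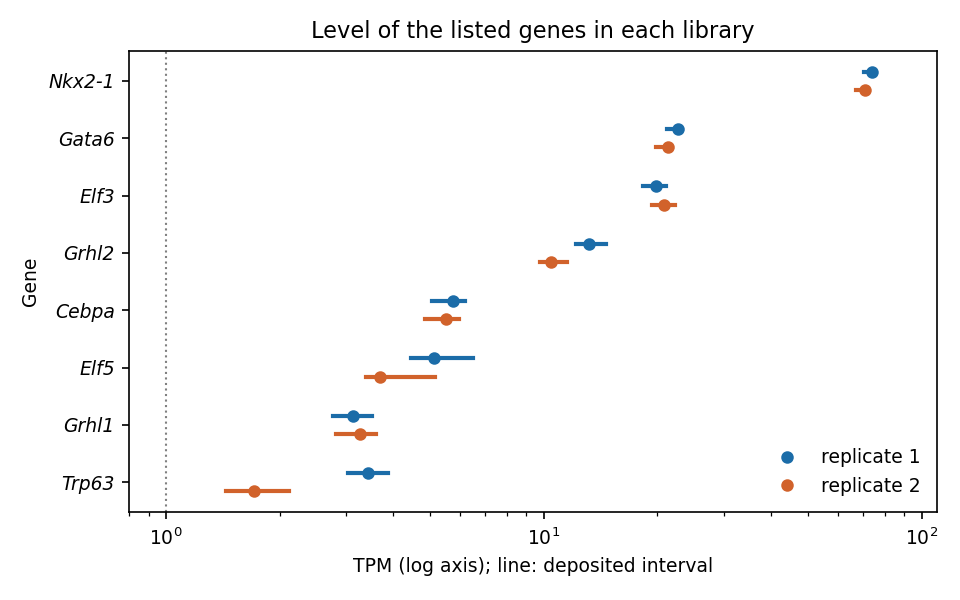
TPM of each factor (log axis) in replicate 1 (blue) and replicate 2 (orange), with points for the TPM, lines for the deposited interval and a dotted line at 1 TPM. Nkx2-1 stands above 71 TPM in both libraries, and the intervals of the libraries are separate for Grhl2 and Trp63.

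Nkx2-1 (ENSMUSG00000001496.11, chr12:56531958-56536908, minus strand, GRCm38), the homeobox factor of lung and thyroid identity, had 74.1 TPM (70.3 to 74.7) in replicate 1 and 71.0 TPM (67.2 to 71.6) in replicate 2. The mean was 72.6 ± 2.16 TPM from 4310 and 3812 reads, above 82.8% of the detected protein-coding genes. The intervals of the libraries overlapped. It was the only abundant gene of its family: of 7 NK2 homeobox genes 2 were detected, and Nkx2-5, a heart factor, was the other at 3.92 and 2.02 TPM. Nkx2-3 and Nkx2-4 stayed at or below 0.06 TPM, and Nkx2-2, Nkx2-6 and Nkx2-9 were listed at 0 in both libraries. NKX2-1 is also made in the thyroid, and 0 of 7 thyroid genes were detected, with a summed level of 1 TPM in replicate 1 and 0.59 TPM in replicate 2.

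The locus of Nkx2-1 has 2 annotated starts that lie 1802 bases apart and lead to the same coding length of 1116 bases. Nkx2-1-202, from the downstream start, carried 66.9 TPM in replicate 1 and 66.3 TPM in replicate 2. That was 90.3% and 93.3% of the gene. Nkx2-1-201, from the upstream start, had 7.22 TPM (6.0 to 8.42) and 4.78 TPM (3.66 to 5.75). Its intervals, each of which describes a single library, did not overlap between the libraries in deposited TPM, while those of Nkx2-1-202 did. With replicate 2 shifted by the TMM scaling given further on, the intervals of Nkx2-1-201 overlap too. The antisense gene Gm26973 overlaps the locus on the other strand and had 10.0 and 10.3 TPM, but it shares 0 exonic bases with Nkx2-1.

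Among 10 genes known as targets of NKX2-1, 9 were detected. Sftpc, the surfactant protein of distal tip and type 2 cells, had 6881 and 5864 TPM. Scgb3a2, a secretoglobin of airway epithelium, had 368 and 440 TPM, and Cldn18, a lung claudin, had 276 and 258 TPM. The lowest was Sftpd, a late surfactant protein, at 0.83 and 0.50 TPM. The median log2 ratio of replicate 2 over replicate 1 was -0.30 over the 9 targets with a mean of at least 1 TPM, beside 0.0055 over all genes at that level, with 8 higher in replicate 1 and 1 in replicate 2. For Nkx2-1 itself that ratio was 0.01. None of these targets was apart by the rule for the libraries given further on.

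Gata6 (ENSMUSG00000005836.8, chr18:11052064-11085635, plus strand), a zinc finger factor of endoderm that is also made in mesenchyme and heart, had 22.7 TPM (21.2 to 23.2) in replicate 1 and 21.3 TPM (19.8 to 21.8) in replicate 2. The mean was 22.0 ± 0.962 TPM, and the intervals overlapped. The tables hold a single transcript for it, so no start can be compared. Of 6 GATA genes 6 were detected. Gata5 was close to Gata6 at 23.5 and 22.0 TPM. Gata2, known from blood and endothelium, had 8.65 and 7.65 TPM, and Gata4, a heart and mesenchyme factor, had 4.45 and 4.09 TPM. Gata3 had 4.81 and 2.69 TPM, and Gata1, the erythroid factor, had 1.19 and 1.60 TPM. The gene 1010001N08Rik runs antisense across the start of Gata6, shares 93 exonic bases with it and had 3.14 and 2.16 TPM.

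Cebpa (ENSMUSG00000034957.9, chr7:35119293-35121928, plus strand), a leucine zipper factor of distal lung epithelium, liver and myeloid cells, had 5.74 TPM (5.07 to 6.19) and 5.52 TPM (4.85 to 5.97). The mean was 5.63 ± 0.156 TPM from 385 and 344 reads. It is made from a single exon and a single transcript. It was the lowest of the 6 detected among 7 genes, itself included, that were grouped by name or family. Cebpb, induced in stress and inflammation, had 57.5 and 51.5 TPM, Cebpd had 38.0 and 38.5 TPM, and Cebpg had 34.7 and 36.0 TPM. Ddit3, the stress-induced member, had 15.2 and 16.3 TPM, Cebpz, grouped by its name, had 14.8 and 13.9 TPM, and the granulocyte factor Cebpe was not detected at 0.07 and 0 TPM.

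Liver and myeloid cells also make Cebpa, and their genes gave the following levels. The summed level of 9 liver genes was 34.6 TPM in replicate 1 and 161 TPM in replicate 2, with Afp, the fetal albumin relative, at 10.7 and 53.6 TPM. By the rule for a difference between the libraries given further on, 8 of the 9 were apart, all higher in replicate 2: Afp, Apoa2, Apoa1, Alb, Ahsg, Serpina6, Ttr and Fgb. Over all 15152 genes with a mean of at least 1 TPM the share apart was 1.07%. Fgb, at 0.41 and 2.28 TPM, reached that mean only through replicate 2. Of 9 myeloid genes 7 were detected, led by Lyz2 at 173 and 148 TPM. Mpo, a granule enzyme, was apart and higher in replicate 2 at 0.60 and 2.06 TPM. It reached a mean of 1 TPM only through that library. Cebpa differed by 1.01-fold between the libraries while the liver genes differed by 4.91-fold in sum, and the part of either cell type in the Cebpa level was not tested. Of 8 genes of type 2 cells, the cells in which C/EBPα is known to support surfactant lipid synthesis, 8 were detected. The list holds lipid genes and a phosphate transporter. Lpcat1, which makes surfactant phosphatidylcholine, led at 82.8 and 71.8 TPM, followed by the lipid regulator Srebf1 at 63.8 and 60.9 TPM and the fatty acid synthase Fasn at 41.9 and 37.4 TPM. Scd1, a desaturase, was the lowest at 2.16 and 2.09 TPM.

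Elf3 (ENSMUSG00000003051.9, chr1:135253575-135258568, minus strand), an ETS factor of many simple epithelia, had 19.8 TPM (18.4 to 21.1) in replicate 1 and 20.8 TPM (19.3 to 22.3) in replicate 2. The mean was 20.3 ± 0.714 TPM, and the intervals overlapped. Its reads divided between 2 coding transcripts. Elf3-202 held 54.1% and 61.8% of the gene and Elf3-201 held 45.9% and 38.2%. In replicate 1 their intervals overlapped, at 8.44 to 12.4 TPM for Elf3-202 and 7.13 to 10.7 TPM for Elf3-201. In replicate 2 they were separate, at 10.8 to 14.8 TPM and 5.77 to 9.32 TPM, so the order of the transcripts was not called. Besides their ends, the transcripts differ by a segment of 60 bases (20 codons) inside the coding part, at chr1:135257227-135257286, which only Elf3-201 keeps. It is in capitals here with 18 bases on either side, 5′ to 3′ on the transcript, from GENCODE M21.
Elf3-201: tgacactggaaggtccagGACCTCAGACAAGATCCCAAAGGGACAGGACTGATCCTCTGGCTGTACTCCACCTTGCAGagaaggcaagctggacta

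Elf5 (ENSMUSG00000027186.10, chr2:103411688-103450989, plus strand), an ETS factor known from the distal tips of the branching airways, had 5.12 TPM (4.45 to 6.49) and 3.68 TPM (3.38 to 5.15). The mean was 4.40 ± 1.02 TPM from 251 and 178 reads. The value of replicate 1 was the higher, and the intervals overlapped. In each library Elf3 exceeded Elf5, by 3.87-fold and 5.65-fold, with separate intervals. Of the 7 genes of the ELF group and its epithelial relatives 7 were detected. Elf2, a broadly expressed member, had 58.2 and 60.5 TPM, and Elf1, known from blood cells and endothelium, had 15.7 and 14.8 TPM. Elf4 had 5.31 and 4.18 TPM. The epithelial relatives Ehf, at 4.2 and 3.74 TPM, and Spdef, a factor of mucous cells, at 2.19 and 1.40 TPM, were near the level of Elf5 or below it.

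Elf5 has 2 annotated coding starts that lie 12374 bases apart. Transcripts from the downstream start held 95.7% of the gene in replicate 1 and 94.0% in replicate 2, mostly as Elf5-201 with 3.88 and 2.96 TPM. The upstream start held 4.30% and 4.08%, all of it assigned to the retained-intron transcript Elf5-204. The coding transcript of the upstream start, Elf5-206, was listed at 0 in both libraries, with an upper bound of 0.235 TPM in replicate 1 and 0.192 TPM in replicate 2. Elf5-201 and Elf5-206 have the same coding length of 759 bases. The promoter of the downstream start is shown because that start holds most of Elf5. It is taken from RefSeq on GRCm38.p6, whose start lies 6 bases past the annotated one, and runs from 250 bases before that start to the first 20 transcribed bases, which are in capitals.
Elf5 downstream start, chr2:103423818-103424087: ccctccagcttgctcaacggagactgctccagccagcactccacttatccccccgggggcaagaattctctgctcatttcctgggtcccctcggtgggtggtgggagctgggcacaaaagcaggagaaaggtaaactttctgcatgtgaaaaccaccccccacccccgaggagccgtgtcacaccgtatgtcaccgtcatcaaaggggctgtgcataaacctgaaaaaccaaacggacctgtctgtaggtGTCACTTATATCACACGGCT

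Over windows of 300 bases around the start, the downstream promoter of Elf5 holds 10 CpG pairs, where the median over all 32851 RefSeq promoters is 7. The other RefSeq start of Elf5, with 3 CpG, lies 410 bases past the annotated upstream start, so its window is not the promoter of Elf5-204 and Elf5-206. Entries were matched for 5 of the 8 genes, with 7 promoters in all. The pair of Grhl1 promoters differs more, with 35 CpG at the upstream start and 0 at the downstream one. Cebpa has 29, Elf3 12 and the upstream start of Nkx2-1 12. The letters CAAGTG, a core of NKX2-1 sites, were searched on both strands and were present in 1 of the 7 promoters, that of Elf3, and in 13.6% of all promoters. The letters AGATAA, known from the sites of GATA6 and its family, were also searched on both strands and were in 0 of the 7 and in 11.2% of all promoters. These matches describe the letters only.

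Grhl2 (ENSMUSG00000022286.11, chr15:37233036-37363569, plus strand), the grainyhead factor of junction genes such as that of E-cadherin, had 13.2 TPM (12.2 to 14.6) in replicate 1 and 10.5 TPM (9.75 to 11.5) in replicate 2. The mean was 11.8 ± 1.92 TPM. Replicate 1 was higher and the intervals did not overlap, although after scaling the difference was only 1.20-fold. Grhl1 (ENSMUSG00000020656.11, chr12:24572283-24617391, plus strand), its relative known from desmosomal genes of the skin, had 3.13 TPM (2.76 to 3.51) and 3.27 TPM (2.81 to 3.61), with a mean of 3.20 ± 0.0990 TPM. The libraries were close and their intervals overlapped. Grhl2 exceeded Grhl1 by 4.21-fold in replicate 1 and 3.20-fold in replicate 2, with separate intervals in each. Grhl3, best known from neural tube closure and the skin barrier, had 3.67 and 4.00 TPM. In the wider family Ubp1 had 25.3 and 23.8 TPM and Tfcp2 had 14.3 and 12.5 TPM, while Tfcp2l1 was below the minimum at 0.86 and 0.67 TPM.

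Grhl2 was mostly the full-length coding transcript Grhl2-201, with 67.5% and 68.1% of the gene. Grhl2-205, a transcript with an internal start and no coding part, held 22.2% and 25.8%. The share of Grhl1 from its downstream start could not be fixed: Grhl1-201 held 1.60% in replicate 1 and 37.0% in replicate 2, and its intervals, 0 to 0.937 TPM and 0.268 to 1.88 TPM, overlapped. The upstream transcript Grhl1-202 led in both libraries, with 3.08 TPM (2.12 to 3.28) and 2.06 TPM (1.39 to 2.84). Its intervals were separate from those of Grhl1-201 in replicate 1 only. At the start of Grhl2 lies the antisense gene Gm16136, with 22.3 and 22.0 TPM, which was above Grhl2 in both libraries. It shares 169 exonic bases with Grhl2, and since the use of strand in counting is not given in the sources used here, reads of those bases cannot be told apart. A further antisense gene within Grhl2, Gm16137, had 1.00 and 0.36 TPM, and the pseudogene Gm16138 had 0.59 and 0.35 TPM; both share 0 exonic bases with it.

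Of 10 genes known as targets of GRHL2, 10 were detected, and their levels hardly differed between the libraries. Epcam, an epithelial adhesion molecule, had 242 and 246 TPM. The claudin Cldn3 had 219 and 202 TPM, and Cdh1, which encodes E-cadherin, had 98.6 and 88.5 TPM. Ovol1, a zinc finger factor of epithelial state, was the lowest at 1.69 and 1.73 TPM. The median log2 ratio of the 10 was -0.02, with 6 higher in replicate 1 and 4 in replicate 2, beside -0.26 for Grhl2 itself.

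**Figure D2:**
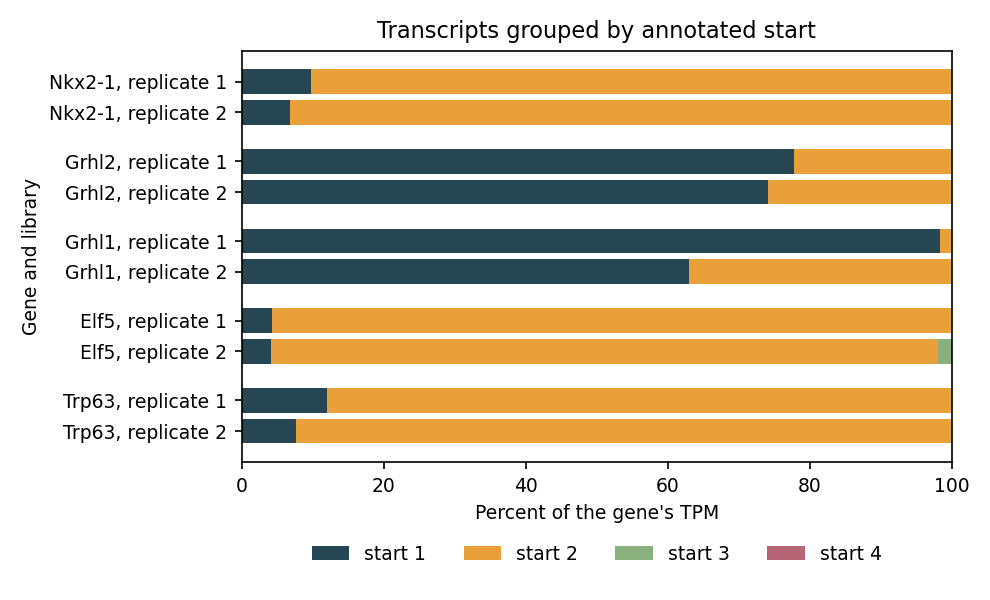
Percent of the TPM of Nkx2-1, Grhl2, Grhl1, Elf5 and Trp63 from each annotated start, numbered from the most upstream, in each library. The downstream start 2 holds over 90% of Nkx2-1 and Elf5, and the share of Grhl1 from start 2 moves from 1.60% in replicate 1 to 37.0% in replicate 2.

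Trp63 (ENSMUSG00000022510.10, chr16:25683763-25892102, plus strand) was the lowest of the 8 genes by mean and the most unequal between the libraries. It had 3.43 TPM (3.03 to 3.87) in replicate 1 and 1.71 TPM (1.44 to 2.12) in replicate 2, from 342 and 146 reads, with a mean of 2.57 ± 1.22 TPM. The 95% exact Poisson intervals of the reads, on the same scale, were 3.08 to 3.81 TPM and 1.44 to 2.01 TPM and cover counting error only. Neither kind of interval overlapped. Its relatives behaved otherwise: Trp53, the tumour suppressor made in most embryonic cells, had 142 and 144 TPM, and Trp73, a factor of multiciliated cells, had 1.31 and 1.47 TPM.

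The Trp63 gene has 2 groups of transcripts. The upstream start gives the TA proteins, which begin with a transactivating domain, and the start 118151 bases downstream gives the ΔN proteins, which lack it and are the form known from basal cells. The ends of the separate coding parts of a TA transcript, Trp63-208, and of a ΔN transcript, Trp63-201, are shown from GENCODE M21 to make the difference visible. The coding part has 324 bases (108 codons) in TA that ΔN lacks, of which the last 240 are printed, and 42 bases (14 codons) in ΔN that TA lacks. Capitals mark these, and the 18 lower-case bases open the exon that both share.
Trp63-208, TA: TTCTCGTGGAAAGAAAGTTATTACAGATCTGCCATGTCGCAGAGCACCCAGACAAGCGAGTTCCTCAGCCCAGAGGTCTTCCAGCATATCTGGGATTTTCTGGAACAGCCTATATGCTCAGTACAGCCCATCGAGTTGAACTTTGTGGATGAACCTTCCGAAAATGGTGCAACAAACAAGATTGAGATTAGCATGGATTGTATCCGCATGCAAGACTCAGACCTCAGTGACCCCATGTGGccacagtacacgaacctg
Trp63-201, ΔN: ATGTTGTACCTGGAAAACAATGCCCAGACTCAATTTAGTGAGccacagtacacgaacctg

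Transcripts with the ΔN start held 88.0% of Trp63 in replicate 1 and 92.4% in replicate 2, from 324 and 140 reads. The complete TA transcripts Trp63-202, Trp63-207 and Trp63-208 were listed at 0 in both libraries, and the upper bound of Trp63-208 was 0.121 TPM in replicate 1 and 0.0988 TPM in replicate 2. All reads given to the TA start went to Trp63-206, a short model of 4 exons that had 0.41 TPM (0.241 to 0.639) and 0.13 TPM (0.0501 to 0.287). Trp63-206 runs 676 bases past the end of the exon it shares with the other forms. Reads per exon are not in the tables, so these reads do not show by themselves that the TA start was used. By the posterior mean, which spreads some reads over every annotated transcript, the ΔN share was 84.2% and 85.1%.

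**Figure D3:**
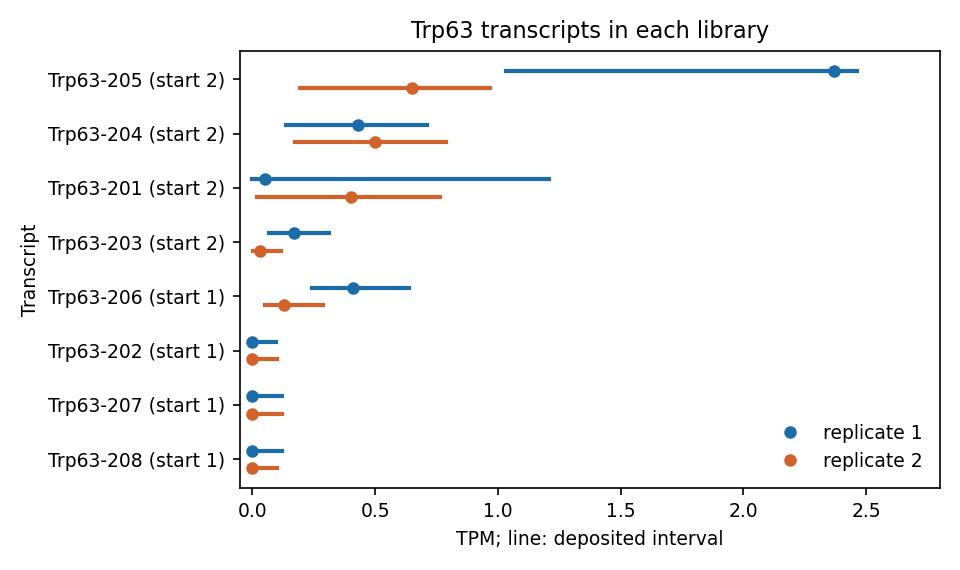
TPM of the 8 annotated Trp63 transcripts in replicate 1 (blue) and replicate 2 (orange), with lines for the deposited interval; start 2 is the ΔN start and start 1 the TA start. Trp63-205 leads in both libraries, and Trp63-202, Trp63-207 and Trp63-208 lie at 0.

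Within the ΔN group, Trp63-205 was the highest in both libraries, with 2.37 TPM (1.03 to 2.46) and 0.65 TPM (0.193 to 0.967), and its intervals did not overlap between the libraries. Trp63-204, which ends earlier, had 0.43 TPM (0.136 to 0.713) and 0.50 TPM (0.175 to 0.788). Its interval overlapped that of Trp63-205 in replicate 2, so the order of this pair was not called. Trp63-201 had 0.05 TPM with an upper bound of 1.21 TPM in replicate 1, and 0.40 TPM (0.0182 to 0.763) in replicate 2. Transcripts that end in the last exon of the gene made up 70.6% and 61.4% of Trp63. Trp63-201 and Trp63-205 are separated by 12 bases (4 codons) at the end of an exon, chr16:25866200-25866211, in capitals in the first line and absent at the same junction in the second.
Trp63-201, with the segment: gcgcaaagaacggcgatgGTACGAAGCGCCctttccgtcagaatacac
Trp63-205, without it: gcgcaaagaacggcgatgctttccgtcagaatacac

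Transcripts without these 12 bases held 69.1% of Trp63 in replicate 1 and 38.0% in replicate 2, and those with them 14.0% and 52.6%. The intervals of Trp63-201 and Trp63-205 overlapped in each library, so which form led was not called.

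Among 9 genes known as targets of TRP63, 8 were detected. Krt15, a basal keratin, had 50.2 and 41.2 TPM, Perp, a desmosomal protein, had 38.6 and 31.1 TPM, and Cdkn1a, which is also a target of p53, had 27.3 and 29.6 TPM. Krt5, the defining keratin of basal cells, had 9.51 TPM in replicate 1 and 3.95 TPM in replicate 2. The desmocollin Dsc3 was below the minimum at 0.37 and 0.13 TPM. The median log2 ratio over the 8 targets was -0.25, with 6 higher in replicate 1 and 2 in replicate 2.

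A gene was called apart between the libraries when its TPM, scaled by TMM over all genes, differed 2-fold or more, its mean was at least 1 TPM and its intervals did not overlap. Of 15152 genes with that mean, 162 were apart, 1.07%, and 0.719% were higher in replicate 1 against 0.35% in replicate 2. Among genes with a mean of 1 to 10 TPM, the range of the 4 lower factors, the share apart was 2.36%. None of the 8 factors was apart. Their log2 ratios of replicate 2 over replicate 1 were 0.01 for Nkx2-1, -0.02 for Gata6, 0.02 for Cebpa, 0.14 for Elf3, 0.13 for Grhl1, -0.26 for Grhl2, -0.40 for Elf5 and -0.93 for Trp63. The intervals of 2 of the 8 did not overlap, Grhl2 and Trp63, beside 15.1% of the 15152 genes.

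Trp63 lay next to the threshold, with a scaled difference of 1.91-fold. It was past 2-fold, and then called apart, in the deposited TPM without scaling (2.01-fold) and in TMM-scaled reads (2.07-fold). Scaled to the summed level of 12 general epithelial genes it was 1.91-fold. That sum was 1925 TPM in replicate 1 and 1829 TPM in replicate 2, a scaled ratio of 1.00, with Krt8 the highest at 318 and 280 TPM and Esrp1 the lowest at 24.96 and 22.64 TPM. At 1.5-fold or more with separate intervals, Trp63 was the only factor of the 8, beside 1.86% of the 15152 genes and 1.39% higher in replicate 1. There is no test of the pools, since each has 1 library.

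**Figure D4:**
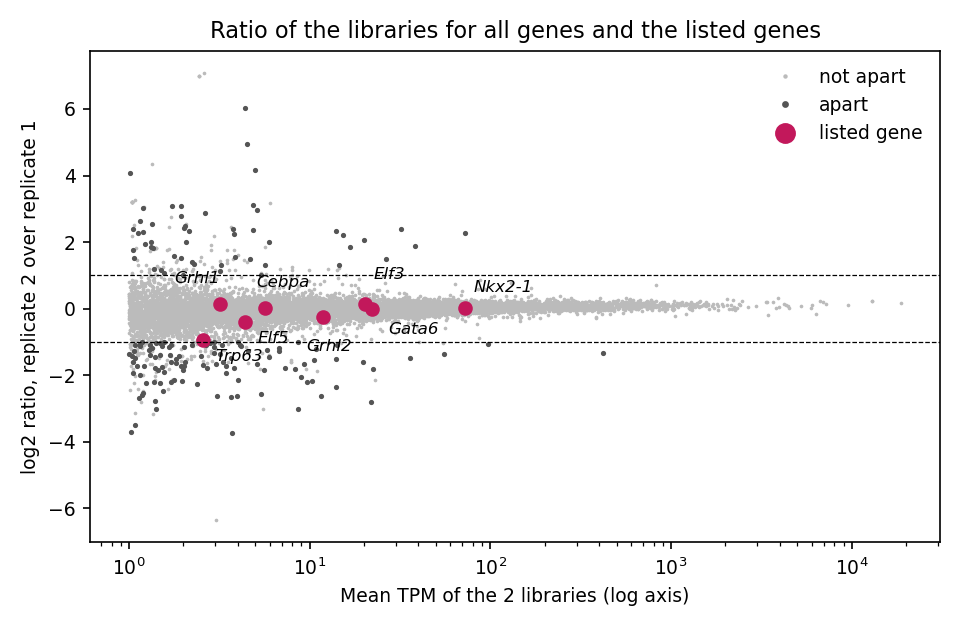
Log2 ratio of replicate 2 over replicate 1 against mean TPM (log axis) for all genes of at least 1 TPM (grey, dark where apart) and the 8 factors (magenta); dashed lines mark 2-fold, and genes at 0 in either library are not drawn. Trp63 at -0.93 lies just inside the lower line, and the other factors lie between -0.40 and 0.14.

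Marker genes of cells that also make TRP63 gave the following levels. Of 8 genes of airway basal cells 7 were detected and 8 had the higher scaled value in replicate 1. Their median log2 ratio was -0.71, beside 0.0055 over all genes with a mean of at least 1 TPM. Some of them, such as Krt5 and Krt15, are also among the targets of TRP63, so these lists are not separate. Krt17 was apart at 15.4 and 6.30 TPM, as was Krt5, while the highest, Snai2, a factor that mesenchyme also makes, had 132 and 118 TPM, and Krt15 comes next with the values above. The lowest, Dlk2, had 1.40 and 0.78 TPM. It counts among the 8 and in their median, though it reached a mean of 1 TPM only through replicate 1. The list's summed level was 216 and 175 TPM, most of it from Snai2, and none of the 8 was at 0 in both libraries. Of 8 genes of squamous epithelium of the oesophagus and upper airway 5 were detected, with a summed level of 51.2 and 31.6 TPM and a median log2 ratio of -0.83 over the 5 with a mean of at least 1 TPM. Krt4 had 15.6 and 11.2 TPM, Sbsn had 10.6 and 11.1 TPM, and Sprr2a2, a cornified envelope protein, was the only squamous gene apart at 13.0 and 3.52 TPM. The lowest, Ivl, had 0.02 and 0 TPM.

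Thymus, whose epithelium makes TRP63 as well, gave the widest gap in that direction among the marker lists. Its list mixes genes of thymic epithelium, such as Ccl25, with T cell genes, such as Lck and Cd3e. The gap is thus not that of the epithelium alone. Of 9 thymus genes 4 were detected, and 6 were apart, all higher in replicate 1, with a summed level of 65.6 and 19.9 TPM over the 9. The median log2 ratio was -2.24 over the 6 with a mean of at least 1 TPM, of which Psmb11 (3.98 and 0.79 TPM) and Rag1 (2.46 and 0.50 TPM) reached that mean only through replicate 1. Ccl25, a chemokine of thymic epithelium, had 19.6 and 8.67 TPM, the T cell kinase Lck had 21.1 and 6.97 TPM, and Cd3e had 9.22 and 1.49 TPM. Ptcra had 6.89 and 1.06 TPM, and Dntt was the lowest at 0.15 and 0.04 TPM. Basal cells, squamous epithelium and thymus thus each had higher sums in replicate 1, with scaled ratios of 1.18, 1.54 and 3.14. Trp63 and the sum of its ΔN transcripts (3.02 and 1.58 TPM) were also higher there, and the part of these cells in the level of Trp63 was not tested. Higher sums in replicate 1 were not particular to these lists. The ratio was 1.47 for heart muscle and 1.10 for targets of NKX2-1, against 1.00 for general epithelium and 0.204 for liver.

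Other tissues differed too. Heart muscle genes, 8 of 8 detected, summed to 1137 and 737 TPM, with Myl7, Myh6 and Nppa apart and higher in replicate 1 and Myl2, Myl3 and Myh7 apart and higher in replicate 2. Nkx2-5, the relative of Nkx2-1 given above, is a heart factor and was higher in replicate 1 with a log2 ratio of -0.88, and the part of heart tissue in it was not tested. Lung mesenchyme, 8 of 8 detected, had a median log2 ratio of -0.01 and endothelium, 7 of 7 detected, one of -0.02, with no gene apart in either.

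**Figure D5:**
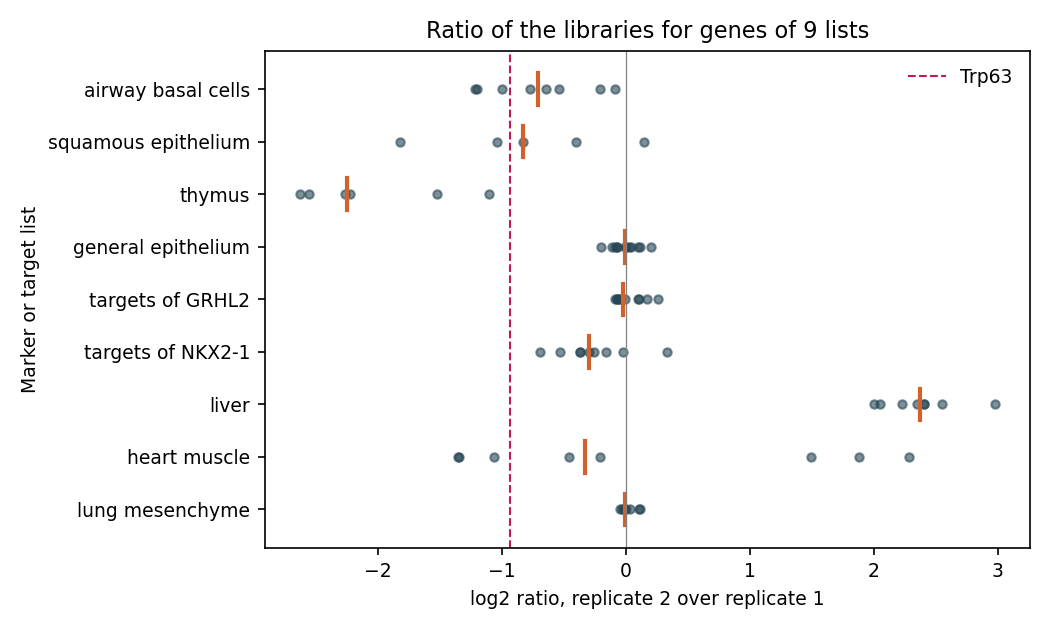
Log2 ratio of replicate 2 over replicate 1 for the genes of 9 lists with a mean of at least 1 TPM (points), the median of each list (orange bar) and Trp63 (dashed line). General epithelium, targets of GRHL2 and lung mesenchyme centre on 0. The medians of basal, squamous and thymus genes lie to the left, with the squamous gene Sbsn right of 0. Those of heart muscle (-0.33) and targets of NKX2-1 (-0.30) lie to the left too, and that of liver genes to the right.

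The order of the 8 genes was compared within each library, where a pair was called different in level if its order was the same in replicates 1 and 2 and its intervals were separate in each. Of 28 pairs 27 had the same order and 24 were called different. Nkx2-1 was above each other factor, by 3.27-fold and 3.34-fold over Gata6. The pairs not called different were neighbours: Gata6 and Elf3, with ratios of 1.14 and 1.02, Cebpa and Elf5, with 1.12 and 1.5, Elf5 and Grhl1, with 1.64 and 1.13, and Grhl1 and Trp63. For the last pair the order turned, with a ratio of 0.913 in replicate 1 and 1.91 in replicate 2.

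The chromosomal neighbours within 50 kb of these genes ranged widely. The highest was Timm17a, a mitochondrial import gene, near Elf3 at 157 and 161 TPM, 36645 bases away. Elf3 also overlaps the antisense gene Gm26642, which had 0.15 and 0.21 TPM and shares 162 exonic bases with it. Cat, the catalase gene on the other strand 2860 bases from Elf5, had 76.6 and 70.5 TPM, against 5.12 and 3.68 TPM for Elf5. Taf1b, a factor of RNA polymerase I, was the highest near Grhl1 at 22.3 and 22.5 TPM. Near Grhl2 the highest by mean was Gm16136, while in replicate 1 alone Ncald was higher, at 23.7 TPM (17.99 TPM in replicate 2), and the small noncoding neighbours of Cebpa that the tables hold were listed at 0. The antisense gene Gm45091 overlaps Cebpa and shares 51 exonic bases with it, but no level is given for it. For Trp63 the neighbours in the tables, Gm24928 and Gm27005, both inside the gene, were listed at 0.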

How the data were processed

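For each of 2 libraries the authors deposited a gene table and a transcript table, whose expected counts are estimated reads per feature and need not be whole, per the file headers. The deposited TPM values are scaled to a common total over all features, spike-in and numbered features included, and come with a posterior mean and an interval whose level is not stated there. The deposited percent values give the share of a gene's TPM held by each transcript. Deposited text names mm10 as the build with GENCODE M4; program and strand use: not given in the sources used here.

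Names and positions (1-based, GRCm38) came from GENCODE M21, which matched 97.96% of 43346 identifiers; 26 of the 29 transcripts of the 8 genes have the same length there. Numbered and spike-in features (2.14% and 2.37% of reads) stayed out of library sizes. Expected counts were rounded and scaled by TMM (edgeR 4.0.16, R 4.3.3), which shifted replicate 2 by 0.07 (log2); Python 3.11.15 did the rest. The scaling and the calls of the exact binomial test, an alternative to the rule with intervals, were tested on simulated counts. The rule with intervals itself was not tested in that way. Starts were grouped from the annotated transcripts. All 8 genes, every relative, the 3 highest, the lowest and every apart member of other lists, and transcripts with 5% or more in both libraries (all for Trp63 and where a start turns on them) could be named; for marker lists of other tissues only some of these are given. Genes and lists were chosen with earlier results of these data known. Some lists share genes, such as Epcam and Cdh1 in general epithelium and the targets of GRHL2. Other scalings, DESeq2 1.42.0 size factors included, minimums, estimates and left-out replicates were tried.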

Additional observations from a re-analysis of the deposited data

How the results depend on the processing

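No paired analysis was possible because there is a single group. Leaving out spike-in, numbered and mitochondrial features raised the mean TPM to 78.5 for Nkx2-1, 23.8 for Gata6, 22.0 for Elf3, 6.09 for Cebpa and 3.46 for Grhl1, by construction. Without scaling, the log2 ratio was -0.061 for Nkx2-1 and -0.056 for Cebpa, the reverse of the scaled sign, and -1.0 for Trp63; with TMM-scaled reads, an alternative chosen after seeing the data, it was -0.000607 for Nkx2-1 and -1.05 for Trp63. In each of these settings 1 of the 8 genes, Trp63, was apart. With a minimum of 5 TPM 41 genes were apart, and with no minimum 337. By the posterior mean the share was 84.7% for the ΔN start of Trp63, 89.3% for the downstream start of Elf5 and 64.4% for Grhl2-201. At 5 TPM, 5 of the 8 factors were detected, with 1 NK2, 3 GATA, 3 ELF and epithelial ETS, 3 grainyhead and 1 p53 family gene, 3 targets of TRP63 and 3 basal, 3 liver, 2 squamous and 2 thymus genes. Without replicate 2, 7 thymus genes were detected, and without replicate 1, 4. The cause of these moves was otherwise not tested. Of the other 192 values, log2 ratios kept their sign and call, levels and shares moved by less than the SD, and counts stayed within 1.5 times: the exact binomial test put 233 genes apart, and leaving out a replicate put 25 to 26 pairs of the 8 genes apart. Part of this was fixed in advance. With a replicate left out, a mean of 2 libraries always moves by less than their SD. The binomial test, the minimums and the scaling of the intervals leave a log2 ratio as it is, so only its call could change. Depth limits Trp63 and Elf5, whose minor transcripts rest on few reads.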
